A study of Mus musculus with 10 samples.

Results

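The genes of the high mobility group (HMG) chromatin proteins were described over a course in which mouse fibroblasts were turned by small molecules into cells like those of the extraembryonic endoderm (XEN). The 9 genes were chosen by name, as members of the HMGB, HMGN and HMGA families, and are 9 of 23201 genes in the table. The fibroblasts were mouse embryonic fibroblasts, isolated from ICR embryos according to the study's methods, which also name Oct4-EGFP mice without saying whether any of these cells came from them. The cocktail on the labels and in the study's own account of these cells is C6FAE: CHIR99021 (a GSK3 inhibitor), RepSox (an ALK5 inhibitor, the 6 of the name), Forskolin (a cAMP agonist), AM580 (a retinoic acid receptor agonist) and EPZ004777 (a Dot1L inhibitor). The general medium in the methods also holds valproic acid. Single cells were picked by hand, and their polyA RNA was counted as unique molecular identifiers (UMIs), barcodes that let copies of 1 RNA molecule be counted as 1.

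The group d0 holds fibroblasts on day 0, and d1, d2, d3, d4, d5, d8, d12 and d20 hold cells on that day of the course. Group d6p was taken as day 6, and the meaning of its p is not stated. Groups d8c and d12c hold cells from colonies picked on days 8 and 12. The labels list 10 batches, which the cell names (a time point and a running number) do not show. Each group is therefore 1 sample, untested and unreplicated, and batch and time point cannot be told apart.

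HMG proteins are small, abundant proteins that bind DNA or nucleosomes and loosen or bend chromatin. HMGB proteins bend DNA through HMG boxes, HMGN proteins bind nucleosomes and compete with linker histone H1, and HMGA proteins bind AT-rich DNA through AT hooks. Several of them are abundant in dividing and embryonic cells, and HMGA2 is a known target of the let-7 microRNAs.

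Of 808 cells, the 670 with 4000 or more detected genes were kept. They held between 17633 and 6004864 UMIs each, and the median by group ran from 195480 at d20 to 1055206 at d2. The 9 genes together gave 250059 UMIs at d0, 153601 at d12 and 57905 at d20. Levels are UMIs scaled to the same total in every cell (CPM), without the ERCC spike-in RNAs added to each cell, and averaged over the cells of a group. Intervals in parentheses are exact 95% Poisson intervals of the UMIs put on the scale of that mean, and cover counting error only. Spread is given as the standard deviation (SD) over cells or the range over cells, and cells are not replicates of a group. The median share of ERCC in a cell's counts was 3.28% at d0, 11% at d12 and 19.3% at d20, a difference that CPM does not show.

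The groups differed in expression of cell cycle genes, measured in each cell as the summed CPM of 42 S phase and 51 G2/M genes, with Hmgb2 left out of the list. The median sum was 9958 CPM at d0 and 9980 at d1. It was 1969 at d4, 1821 at d8 and 1310 at d12, and 10575 at d20. Cells from colonies had higher median sums than the other cells of the same day, with 10142 CPM at d8c and 5089 at d12c. Within d12c, however, the median sum was 1422 CPM in the 21 cells numbered 1 to 48, close to that of d12. In the 30 cells numbered above 48 it was 7138 CPM. Fibroblast markers were high to d12 and low at d20: the summed level of 10 genes was 3919 CPM at d0, 17307 CPM at d8, 12807 CPM at d12, 3242 CPM in d12c and 95.7 CPM at d20, where Thy1 was the most abundant (36 CPM) and Dcn and Postn were at 0. The 10 XEN markers summed to 64.6 CPM at d0, 149 at d12, 838 at d12c and 1528 at d20, with Sox17 the most abundant at d20 (982 CPM). Dab2 made 55.1 CPM of the sum at d0 and was at 56.5 CPM at d20. From d0 to d20, 7 of the 8 XEN markers tested were higher and 0 lower, Dab2 being the 1 that was neither. The 4 skeletal muscle markers were also seen, at 306 CPM at d0 (Acta1 184) and 1109 at d12c (Acta1 1045). The 5 macrophage markers summed to at most 29.6 CPM, at d8c, and the 4 endothelial markers to at most 36.7 CPM, at d12, of which Kdr made 36.2. The part of these cell types in the levels below was not tested.

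Hmgb1, which bends DNA in the nucleus and acts as an alarm signal outside it, was counted in every kept cell. Over single cells its level ran from 338 to 3686 CPM at d0 (median 1622), from 225 to 3949 at d12 (median 1071) and from 485 to 3436 at d20 (median 1549). Its mean was highest at d8c, with 2982 CPM (2948 to 3017, SD 1912, 20 cells), and lowest at d12, with 1210 CPM (1201 to 1219, SD 789, 67 cells), a 2.46-fold range. The descending order was d8c, d2, d1, d5, d4, d8, d0, d12c, d3, d6p, d20 and d12, and the quartile ranges of neighbours overlapped in 11 of 11 pairs. Among the 8 genes with usable levels, Hmgb1 and Hmgn1 had the narrowest ranges over the course.

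Hmgb2, an HMGB protein found mainly in dividing cells, had its lowest means at d4, d6p, d8 and d12, the groups with the lowest median cycle sums. The order of its means did not follow those median sums throughout. At d5 the median sum was 4975 CPM and the mean of Hmgb2 612 CPM, beside 9958 and 492 CPM at d0. By medians, however, Hmgb2 was lower at d5 than at d0, as the sums were, with 184 against 478 CPM. Over single cells Hmgb2 ran from 0 to 2019 CPM at d0 (median 478), from 0 to 1847 at d12 (median 6.64) and from 17.3 to 2530 at d20 (median 949). Most d12 cells were thus near 0 and a few were as high as the cells of d0. The means were 492 CPM at d0 (486 to 499, SD 445, 72 cells), 127 at d12 (124 to 130, SD 360, 67 cells) and 1018 at d20 (998 to 1039, SD 595, 38 cells). In descending order the groups were d20, d12c, d8c, d1, d3, d5, d0, d2, d4, d12, d8 and d6p, an 11.3-fold range, and the quartile ranges of neighbours overlapped in 11 of 11 pairs. Both colony groups were above the other cells of their day, with 735 CPM at d8c beside 122 at d8, and 878 at d12c beside 127 at d12. Within d12c, cells numbered 1 to 48 had a mean of 254 CPM (21 cells) and those numbered above 48 a mean of 1315 (30 cells).

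Hmgb3, an HMGB protein known from blood stem cells, had a lower share of cells with a UMI. At d12 it was counted in 71.6% of cells (exact Clopper-Pearson interval 59.3 to 82), and at d20 in 89.5% (75.2 to 97.1), at median depths of 768565 and 195480 UMIs. With cells thinned to the same number of UMIs, these shares were 36.4% at d12 (24 of 66 cells) and 86.1% at d20 (31 of 36 cells). The range over cells was 0 to 728 CPM at d0 (median 45.1), 0 to 714 at d12 (median 2.83) and 0 to 568 at d20 (median 162). Its mean ran from 39.4 CPM at d12 (37.6 to 41.2, SD 105) to 192 at d1 (188 to 196, SD 84.7), and was 166 at d20 (158 to 175, SD 119). The order was d1, d20, d8c, d2, d5, d12c, d3, d4, d0, d6p, d8 and d12, with overlapping quartile ranges in 11 of 11 neighbouring pairs. The d20 level rested on cells numbered 1 to 48, with 197 CPM in 30 cells, against 48.5 in the 8 cells numbered above 48.

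**Figure D1:**
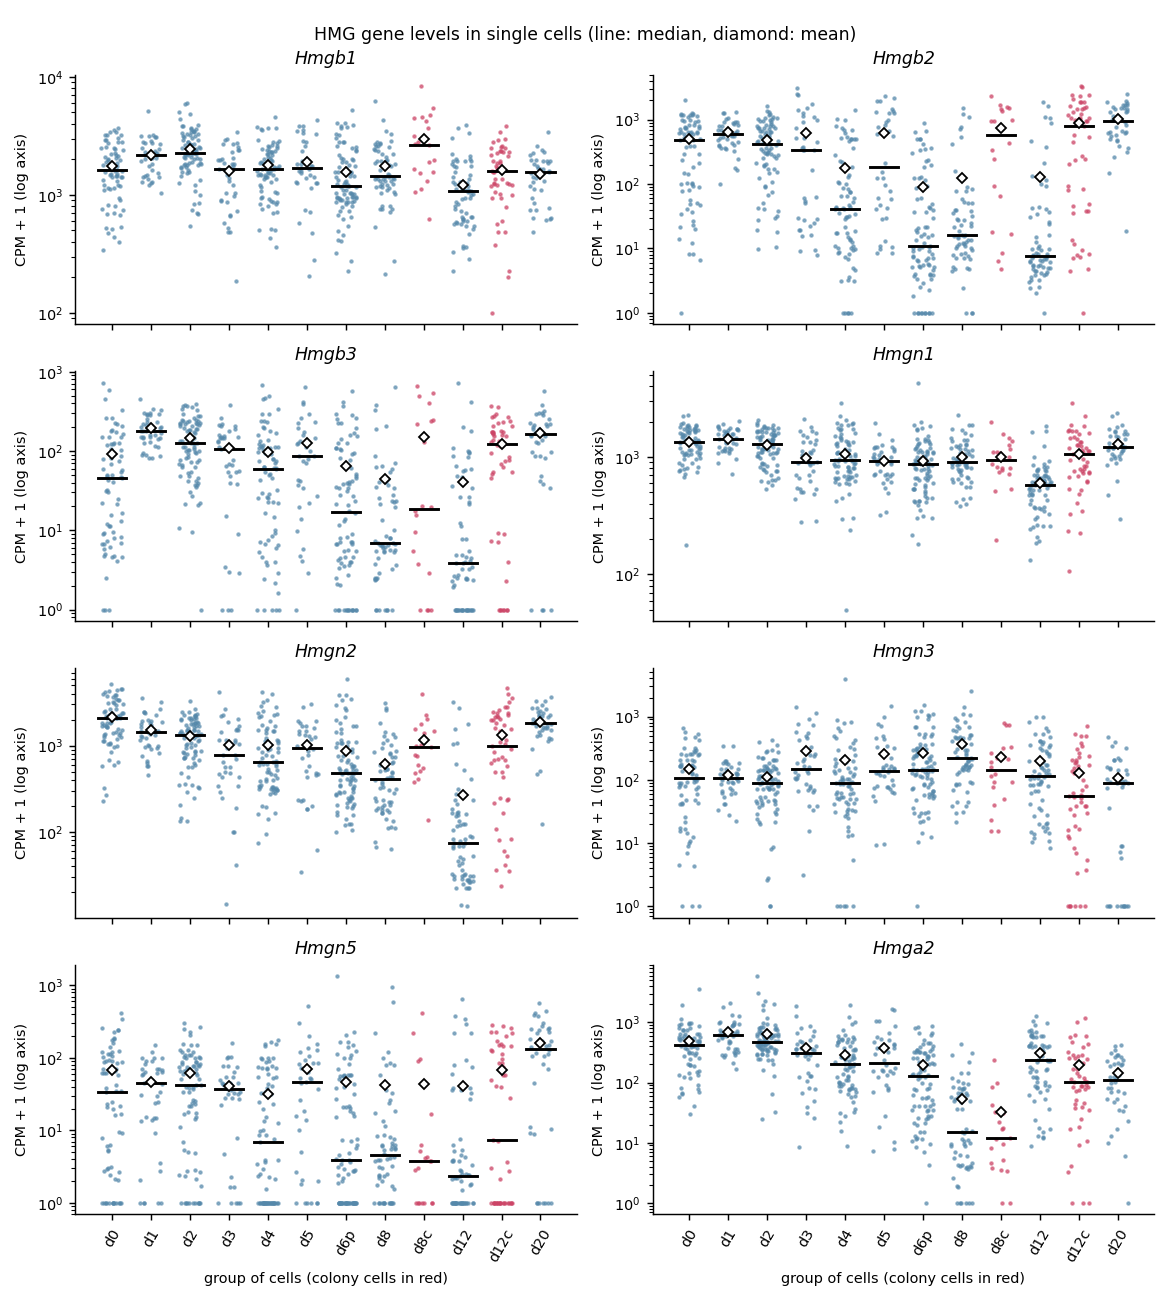
Levels of the HMG genes in single cells, as CPM + 1 on log axes, for the 12 groups of cells in order of time (points: kept cells, those from colonies in red; lines: medians; diamonds: means). Hmgb2 and Hmgn2 are low in most cells at d12 (medians 6.64 and 72.5 CPM), while Hmga2 is lowest at d8 and d8c (medians 13.8 and 10.8 CPM).

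Hmgn1, which binds nucleosomes and counters their compaction, was counted in every kept cell. Over single cells it ran from 177 to 2269 CPM at d0 (median 1343), from 132 to 1832 at d12 (median 578) and from 293 to 2363 at d20 (median 1216). Its mean ran from 602 CPM at d12 (596 to 608, SD 323) to 1425 at d1 (1413 to 1437, SD 300). The order was d1, d0, d20, d2, d4, d12c, d8, d8c, d3, d5, d6p and d12, and the quartile ranges of neighbours overlapped in 11 of 11 pairs.

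Hmgn2, the closest relative of Hmgn1, fell stepwise to d12 and was high again at d20. Over single cells it ran from 225 to 5168 CPM at d0 (median 2068), from 12.8 to 3231 at d12 (median 72.5) and from 124 to 3685 at d20 (median 1825). The means were 2159 CPM at d0 (2144 to 2174, SD 1171), 1020 at d4, 612 at d8, 266 at d12 (262 to 270, SD 585) and 1892 at d20 (1864 to 1921, SD 785). The order was d0, d20, d1, d12c, d2, d8c, d4, d3, d5, d6p, d8 and d12, an 8.11-fold range, and quartile ranges of neighbours overlapped in 10 of 11 pairs, d8 and d12 being apart. At d12c cells numbered 1 to 48 had a median of 238 CPM and those above 48 a median of 1882.

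Hmgn3, an HMGN protein described in endocrine and eye tissues, had its highest mean at d8. Over single cells it ran from 0 to 659 CPM at d0 (median 104), from 20.5 to 2543 at d8 (median 217) and from 0 to 474 at d20 (median 87). Its mean was 149 CPM at d0 (145 to 152, SD 145), 366 at d8 (360 to 371, SD 411) and 107 at d20 (101 to 114, SD 120). The order was d8, d3, d6p, d5, d8c, d4, d12, d0, d12c, d1, d2 and d20, and the quartile ranges of neighbours overlapped in 11 of 11 pairs. The share of cells with a UMI was lowest at d20, at 73.7% (56.9 to 86.6), the group with the lowest median depth. With cells thinned to the same number of UMIs, the share was again lowest at d20, at 72.2% (26 of 36 cells). It was then 74.5% at d12c (35 of 47 cells).

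Hmgn5, an X-linked member with a long acidic tail that binds linker histones, had its highest mean at d20. Over single cells it ran from 0 to 412 CPM at d0 (median 33.2), from 0 to 643 at d12 (median 1.33) and from 0 to 574 at d20 (median 133). The means were 66.1 CPM at d0 (63.6 to 68.6, SD 86.2), 39.5 at d12 (37.8 to 41.2, SD 108) and 157 at d20 (149 to 165, SD 147). The order was d20, d5, d12c, d0, d2, d6p, d1, d8c, d8, d3, d12 and d4, and quartile ranges of neighbours overlapped in 9 of 11 pairs, the exceptions being d1 with d8c and d3 with d12. These exceptions come from groups such as d12 whose mean rests on few high cells, since the quartiles at d12 were 0 and 5.95 CPM.

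Hmga2, an AT-hook protein of embryonic and tumour cells, had the widest range of the 8 genes, 22-fold between d1 and d8c. Over single cells it ran from 28.8 to 3636 CPM at d0 (median 427), from 0 to 430 at d8 (median 13.8), from 7.79 to 1279 at d12 (median 236) and from 0 to 427 at d20 (median 108). The means were 498 CPM at d0 (491 to 506, SD 495), 683 at d1 (674 to 692, SD 412), 52 at d8 (50 to 54, SD 81), 31 at d8c (27.5 to 34.9, SD 54.2), 315 at d12 (310 to 320, SD 285) and 143 at d20 (135 to 151, SD 118). It therefore fell to d8, was higher again at d12 and lower at d20. The order was d1, d2, d0, d5, d3, d12, d4, d12c, d6p, d20, d8 and d8c, with overlapping quartile ranges in 11 of 11 neighbouring pairs. Its low level at d8 was seen in cells numbered 1 to 48 (43 CPM, 42 cells) and above 48 (70.9 CPM, 20 cells).

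Hmga1, the other AT-hook gene, was almost without UMIs. Kept cells held 16 UMIs at d0, 74 at d1, 67 at d2, 36 at d12 and 2 each at d4 and d20, and none in the other 6 groups, among them d8, where 0 of 62 cells, read as up to 3, allows a share of up to 4.84% of cells with a UMI (exact Clopper-Pearson limit 5.78%). The highest mean was 1.78 CPM at d1. So low a count does not show that its RNA was absent, and the share of its sequence with exact copies elsewhere in the genome is given below. The levels of Hmga1 are not described further, and it was below the 20 CPM needed for a fold in every comparison.

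For the other 8 genes, windows of 50 bases in the longest transcript were searched for exact copies elsewhere in the mm9 genome, which were found for 7. In the last 500 bases they covered 94.9% of the windows of Hmgn2, 69.2% of Hmgb3, 29.7% of Hmga2, 14.4% of Hmgn5 and 2.44% of Hmgb2. None was found there for Hmgb1, Hmgn1 or Hmgn3. Over the whole transcript they covered 72.5% of the windows of Hmgb1, 28.6% of Hmgn1 and 0% of Hmgn3. For Hmga1, copies covered 88.9% of the windows in the last 500 bases and 67.7% over the whole transcript. Whether these copies lowered the count of Hmga1 was not tested. How reads with several matches were counted is not given in the sources used here, so the absolute levels of Hmgn2 and Hmgb3 are less certain than those of Hmgn3. In mm9 Hmgb3 and Hmgn5 both lie on X, at chrX:68809093-68813851 (plus strand) and chrX:106199873-106208743 (minus strand). In the same build Hmgb1 lies at chr5:149858278-149865089 (minus strand), Hmgb2 at chr8:59990640-59994796 (plus strand), Hmgn1 at chr16:96342225-96349336 (minus strand) and Hmgn2 at chr4:133520653-133524565 (minus strand). Hmgn3 lies at chr9:83003555-83040292 (minus strand), Hmga1 at chr17:27693565-27700619 (plus strand) and Hmga2 at chr10:119798331-119913525 (minus strand).

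Ratios between groups are log2 of mean CPM + 1, and a gene was counted as higher or lower from a 2-fold difference, among genes with a mean of at least 20 CPM in either group. From d0 to d8, a comparison added after the data were seen, Hmgb2, Hmgb3, Hmgn2 and Hmga2 were lower and Hmgn3 was higher. Of the 9 members 8 could be compared, and 1 was higher and 4 lower, where 16.6% of all genes tested were higher and 14.0% lower. In means the largest change was that of Hmga2, a log2 ratio of -3.24 (52 against 498 CPM), or 9.42-fold lower, followed by Hmgb2, which was 4-fold lower (122 against 492 CPM), and Hmgn2, 3.52-fold lower (612 against 2159 CPM), while by medians Hmgb2 (-4.91) and Hmga2 (-4.85) were close. Hmgn3 was 2.45-fold higher, at 1.29, and short of the limit at 0.35 when scaled to ERCC UMIs and at 0.86 in cells numbered above 48. The median log2 ratio was -0.86 over the members and -0.02 over all genes tested, and relative to that median the same counts, 1 higher and 4 lower, were found. Hmgb3, at -1.05, passed the 2-fold limit in 8 of 15 alternative settings, while Hmgb2, Hmgn2 and Hmga2 passed it in 15 of 15. Scaling to ERCC UMIs gave 0 higher and 6 lower, with Hmgn1 (-1.37) and Hmgn5 (-1.60) added, beside a median of -1.02 over all genes. Hmgn5, at -0.67 in CPM, was also past the limit with 6000 detected genes (-1.32), mean log2 values (-1.62), medians (-2.92), no highest cell (-1.19) and cells numbered 1 to 48 (-1.38), and turned to 0.61 in cells numbered above 48.

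From d0 to d12 Hmgb2, Hmgb3, Hmgn1 and Hmgn2 were lower. These were 4 of 8 members compared, with 0 higher, beside 18.4% of all genes tested higher and 18.0% lower. Hmgn2 changed most in means, by -3.01 (266 against 2159 CPM), and Hmgb2 by -1.95, but by medians Hmgb2 (-5.97) changed more than Hmgn2 (-4.81). Hmgb3, at -1.18, fell short of the limit in cells with 6000 detected genes (-0.92) and in those numbered 1 to 48 (-0.78), and Hmgn1, at -1.15, did so with TMM factors (-0.97) and DESeq2 size factors (-0.98). In cells numbered above 48 Hmgb3 stood at -2.71 and Hmgb2 at -3.27, where Hmgb2 was at -1.61 in those numbered 1 to 48. Hmga2, which had been 2-fold lower at d8, was at -0.66, and Hmgn3 at 0.42. Hmgn5 was at -0.73, and past the limit by mean log2 values (-2.07), by medians (-3.87) and in cells numbered 1 to 48 (-1.25), but at 0.31 in those numbered above 48. Scaled to ERCC UMIs, 8 of 8 members were lower, with Hmgn3 turned to -1.59, Hmgb1 at -2.56 and Hmga2 at -2.68, beside a median of -2.26 over all genes, relative to which 2 were lower. The median log2 ratio of all genes tested was -0.18 and that of the members -0.94, and relative to the former 2 members were lower (Hmgb2 and Hmgn2), with Hmgb3 (-1.0 after rounding) and Hmgn1 (-0.97) just short of the limit.

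From d0 to d20, start to end of the course, Hmgb2 and Hmgn5 were higher in CPM, at 1.05 and 1.24, but lower when scaled to ERCC UMIs, at -1.75 and -1.54, and Hmga2 was lower on either scale, at -1.80 and -4.57. Of the 8 members compared, 2 were thus higher and 1 lower, beside 20.9% and 16.3% of all genes tested. Hmgb1 (-0.21), Hmgn1 (-0.06) and Hmgn2 (-0.19) stood near their d0 level in CPM, and at -3.01, -2.86 and -2.99 when scaled to ERCC UMIs, beside a median of -2.69 over all genes. The median log2 ratio of all genes tested was 0.20 and that of the members -0.12. Relative to the former, Hmgn5 (1.03) was higher, Hmgb2 (0.85) was not, and Hmga2 (-2.0) was lower. The median of all genes moved by -0.30 with TMM factors, -0.18 with DESeq2 size factors and -2.89 with scaling to ERCC UMIs. Hmga2 passed the 2-fold limit in 16 of 16 alternative settings and Hmgb2 in 8 of 16. Hmgb2 stood at 0.94, Hmgn5 at 0.92 and Hmgb3 at 1.12 in cells numbered 1 to 48 alone (30 at d20, 43 at d0), and at 1.32, 1.85 and -0.88 in those numbered above 48 (8 and 29). By mean log2 values Hmgb3 (1.42) was also higher and Hmgn3 (-1.42) also lower. Hmgb3 was higher as well with 2000 (1.04) or 6000 detected genes (1.30) and by medians (1.82).

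From d12 to d20 more members were higher than in the other 3 comparisons of time points. Of 8 compared, 5 were higher (Hmgb2, Hmgb3, Hmgn1, Hmgn2 and Hmgn5) and 1 lower (Hmga2), where 30.3% of all genes tested were higher and 21.3% lower. Hmgb2 was 7.96-fold higher (1018 against 127 CPM, log2 ratio 2.99) and Hmgn2 7.09-fold higher (1892 against 266 CPM, log2 ratio 2.82). Hmgb3 stood at 2.05, Hmgn5 at 1.96 and Hmgn1 at 1.09, while Hmga2 stood at -1.14 and Hmgn3 at -0.89. Hmgn1 fell short of the limit in 4 of 16 alternative settings, with TMM factors (0.65), DESeq2 size factors (0.77), scaling to ERCC UMIs (0.32) and cells numbered above 48 (0.80). The median was 1.53 over the members and 0.36 over all genes tested, and relative to the latter 4 members were higher and 2 lower. With all cells, whatever their number of detected genes, Hmga2 stood at -0.70 and 0 members were lower. Median depth was 195480 UMIs at d20 and 768565 at d12, and the cycle sum 10575 and 1310 CPM.

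Lists of related genes were counted in the same way, in CPM. Among 17 other HMG-box genes, which share the DNA-binding fold of the HMGB proteins, 6 of 11 tested were higher and 0 lower from d12 to d20 (median 1.01, beside 0.36 for all genes), 2 higher and 1 lower of 11 from d0 to d20 (median 0.61, beside 0.20), 0 and 0 of 9 from d0 to d12 (median -0.59, beside -0.18), and 1 and 1 of 9 from d0 to d8 (median 0.18, beside -0.02). The count from d12 to d20 depended on scaling, with 3 higher and 2 lower by TMM factors, 3 and 1 by DESeq2 size factors and 1 and 2 by ERCC UMIs. Scaled to ERCC UMIs, 11 of 11 were lower from d0 to d20 (median -2.11), 9 of 9 from d0 to d12 and 4 of 9 from d0 to d8. On that scale the median over all genes was -2.69 from d0 to d20, -2.26 from d0 to d12, -1.02 from d0 to d8 and -0.64 from d12 to d20. Bbx was at 73.6 CPM at d0 and 215 at d20, which turned to lower on the ERCC scale, and Ssrp1, of the FACT histone chaperone, was at 122, 89 and 203 CPM at d0, d12 and d20. Of the 7 linker histone genes, whose proteins compete with HMGN and HMGB proteins for nucleosomes, 2 of 3 tested were lower from d0 to d8 (median -2.34) and 2 of 3 from d0 to d12 (median -3.22), 1 of 3 was lower from d0 to d20 (median -0.40, and 3 of 3 with -3.11 when scaled to ERCC UMIs) and 1 of 2 was higher from d12 to d20 (median 2.05). Most transcripts of replication-dependent histones lack a polyA tail, so the levels of Hist1h1 genes in polyA RNA do not stand for all of their RNA.

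The 10 nucleosome partners are histone chaperones and related chromatin proteins. From d0 to d8, 6 of 9 tested were lower (median -1.31, beside -0.02 for all genes), from d0 to d12, 7 of 9 (median -1.13, beside -0.18), and from d12 to d20, 7 of 10 were higher (median 2.17, beside 0.36). The 7 lower from d0 to d12 became 4 with TMM or DESeq2 size factors and 9 with scaling to ERCC UMIs. From d0 to d20, 1 of 10 was higher and 0 lower (median 0.34), where scaling to ERCC UMIs gave 0 higher and 10 lower (median -2.46). Of the S genes, 25 of 29 were lower from d0 to d8 (median -1.62), 27 of 30 lower and 1 higher from d0 to d12 (median -1.57), 37 of 38 higher and 1 lower from d12 to d20 (median 2.41), and 16 higher and 1 lower of 38 from d0 to d20 (median 0.72), with 9 higher by TMM factors. When scaled to ERCC UMIs, 35 of these 38 were lower from d0 to d20, and the 16 turned in sign. Of the G2/M genes, 40 of 46 were lower from d0 to d8 (median -1.62), 41 of 46 lower from d0 to d12 (median -2.57), 43 of 46 higher from d12 to d20 (median 2.36), and 1 higher and 2 lower of 47 from d0 to d20 (median 0.13, and -2.62 when scaled to ERCC UMIs). Nasp and Chaf1b are in both the partner and the S list, and Cbx5 in both the partner and the G2/M list.

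The 11 genes of the let-7 axis, regulators and known targets of let-7, were compared beside Hmga2. From d0 to d8, 2 of 5 tested were lower (Igf2bp3 and Nras, median -0.64, beside -0.02 for all genes), and from d0 to d12, 1 of 4 (Igf2bp3, median -0.28, beside -0.18). Scaled to ERCC UMIs these were 4 of 5 (median -1.57) and 4 of 4 (median -2.27). From d0 to d20, 3 of 6 were higher and 0 lower (Lin28a, Igf2bp1 and Arid3a, median 1.32, beside 0.20), of which Igf2bp1 and Arid3a turned in sign when scaled to ERCC UMIs. On that scale 1 was higher and 4 were lower (median -1.43). From d12 to d20, 4 of 6 were higher (these and Igf2bp3, median 1.75, beside 0.36), or 2 higher and 1 lower when scaled to ERCC UMIs. Lin28a, which blocks let-7 maturation, was at 0 CPM at d0, 27.3 at d12c and 28.3 at d20, where Hmga2 was at 498, 195 and 143 CPM.

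The levels were set against cell cycle and against time point or marker class in 3 ways, none of which separates these fully. The first was the share of the variance of log2(CPM + 1) over the 670 cells that the cycle sums and the groups each fitted. For Hmgb2 the S and G2/M sums alone fitted 71.3% and the groups alone 38.7%, and the groups added 5.31% to the sums. For Hmgn2 the sums fitted 55.4% and the groups 41.7%, with 12.8% added by the groups. Hmga2 was the reverse: the sums fitted 5.35%, the groups 41.4%, and the groups added 36.2%. Hmgb1, Hmgb3 and Hmgn1 lay between, with 34.2%, 33.5% and 34% fitted by the sums and 8.41%, 6.19% and 6.65% added by the groups. Little was fitted for Hmgn3 and Hmgn5, at 16.3% and 16.8% by sums and groups together.

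**Figure D2:**
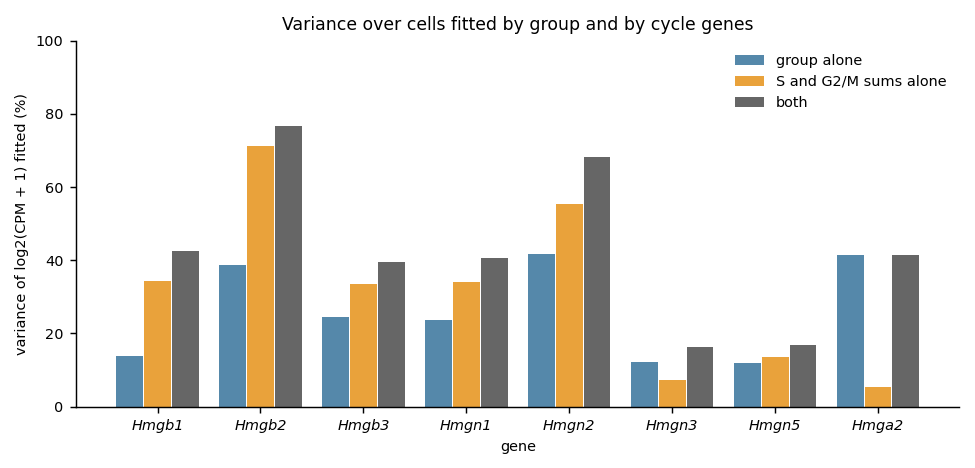
Share of the variance of log2(CPM + 1) over 670 cells, in percent, fitted by group alone, by the S and G2/M sums alone and by both, for 8 HMG genes. The cycle sums fit more than the groups for Hmgb2 (71.3% and 38.7%), and the groups fit more for Hmga2 (41.4% and 5.35%).

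In the same fit, differences between groups were taken with the cycle sums as terms, a step added after the data were seen. On the scale of mean log2(CPM + 1), the difference of Hmgb2 between d12 and d0 went from -3.89 to -0.22, and that of Hmgb3 from -2.31 to -0.31. For Hmgn2 the same difference went from -4.33 to -2.57, so more of it was left. Differences that turned sign were those of Hmgb1 between d12 and d0 (-0.59 to 0.34) and between d20 and d12 (0.45 to -0.59), that of Hmgn3 between d12 and d0 (0.45 to -0.35), those of Hmgb3 and Hmgn1 between d8 and d0 (-1.63 to 0.03 and -0.45 to 0.05), and that of Hmgb3 between d8c and d8 (1.17 to -0.11). For Hmga2 the difference between d8 and d0 went from -4.33 to -4.21, nearly the full size. Between d20 and d12 that of Hmgb2 went from 5.71 to 1.56, that of Hmgn2 from 4.21 to 2.15 and that of Hmgn5 from 3.51 to 2.13. Between d8c and d8, where colonies differ from the other cells of the day, Hmgb2 went from 3.32 to 0.94 and Hmgn2 from 1.16 to 0.05.

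Within groups, each gene was related to the G2/M sum over cells by Spearman's rho, given as the lowest, median and highest of 12 groups of 20 to 86 cells. Cells of a group share their culture and possibly a library, so these are descriptions. For Hmgb2 rho was 0.37, 0.74 and 0.88, and above 0 in 12 of 12 groups. For Hmgb1 it was 0.07, 0.53 and 0.89, for Hmgn2 0.04, 0.47 and 0.81, for Hmgb3 -0.02, 0.38 and 0.61, and for Hmgn1 0.05, 0.34 and 0.72. Hmgn5 had 0.14 as its median, Hmga2 0.06 and Hmgn3 -0.21, the latter above 0 in 3 of 12 groups. The median rho with the depth of the cell lay between -0.14 (Hmga2) and 0.12 (Hmgn5). Between members it was highest for Hmgb1 with Hmgn2, with a median of 0.55 (0.35 to 0.82), and Hmga2 had medians between -0.08 and 0.04 with the other members.

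The second way compared cells of like cycle level, after all kept cells had been ranked by the cycle sum and divided into 3 cycle classes of like size, low (411 to 2025 CPM), middle (2030 to 9382 CPM) and high (9395 to 22095 CPM). Within d12 Hmgb2 had means of 11.6 CPM in the low class (45 cells), 131 in the middle (18 cells) and 1409 in the high (4 cells). Within d20 it had 387 CPM in the 1 cell of the low class, 549 in the middle (12 cells) and 1269 in the high (25 cells). Hmgn2 at d12 rose alike, from 84.1 through 263 to 2331 CPM, so that d12 cells of the high class reached the 2600 CPM of d0 cells in that class within their spread (SD 783 and 1129). Hmga2 at d8 was at 45.5, 69.1 and 42.2 CPM in the low, middle and high class (37, 18 and 7 cells), and was thus low at every cycle level, beside 239, 393 and 613 CPM at d0.

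**Figure D3:**
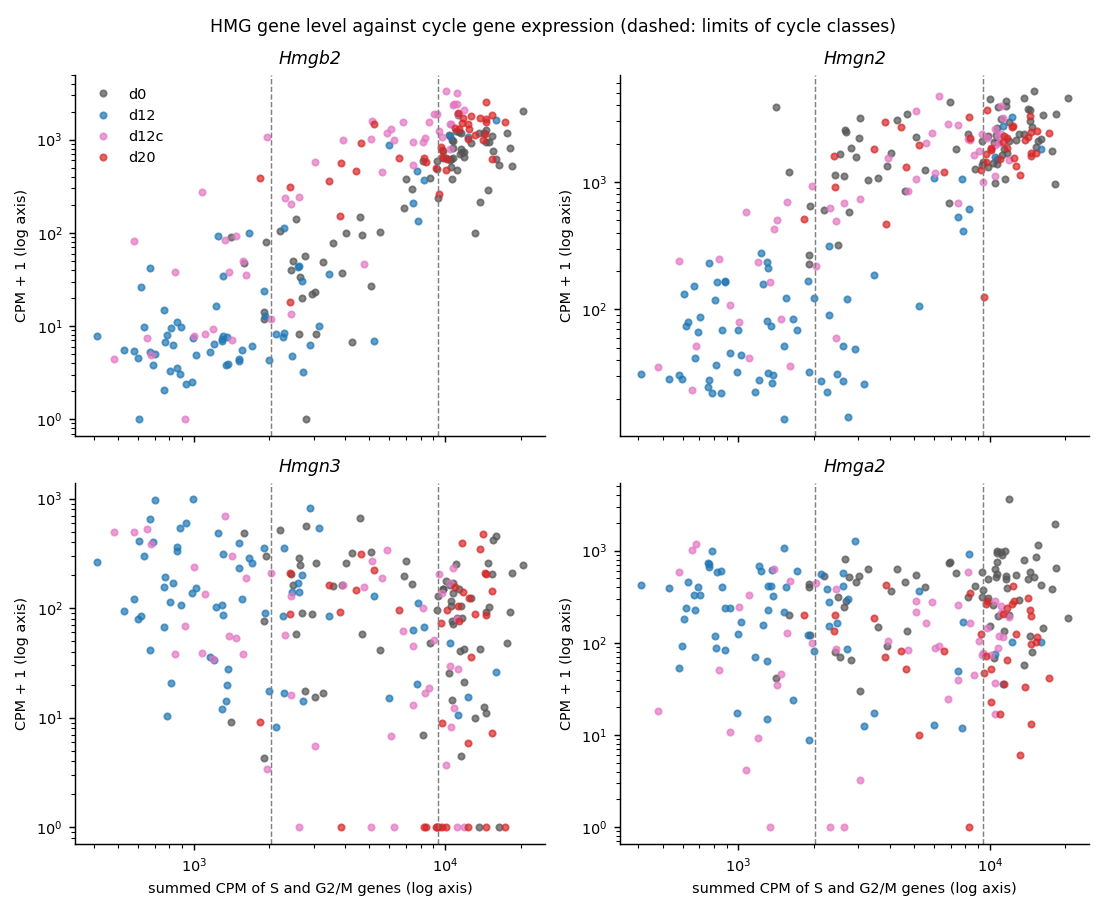
Levels of Hmgb2, Hmgn2, Hmgn3 and Hmga2 as CPM + 1 against the summed CPM of the cycle genes, both on log axes, with 1 point per kept cell of d0, d12, d12c and d20 and dashed lines between the cycle classes. At d12 most cells lie at low cycle sums (45 of 67 in the low class) with Hmgb2 near 0, and those of the high class reach a mean of 1409 CPM.

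From d0 to d20, the middle class held 29 and 12 cells, with median cycle sums of 3901 and 4533 CPM. Hmgb2 (1.89), Hmgb3 (2.12) and Hmgn5 (2.07) were higher in CPM there. Scaled to ERCC UMIs they turned in sign but stayed short of the limit (-0.90, -0.65 and -0.69). Hmga2 (-1.46) was lower on either scale. That made 3 of 8 members higher and 1 lower, beside 25.3% and 20.8% of all genes tested. In the high class, with 38 and 25 cells, 0 members were higher and 1, Hmga2 (-2.12), was lower, beside 21.6% and 16% of all genes tested. There Hmgb2 stood at 0.64 (1269 against 814 CPM, SD 538 and 360) and at -2.16 when scaled to ERCC UMIs. The low class held 1 d20 cell and 5 d0 cells, so its counts, 2 members higher and 3 lower beside 26.1% and 58.6% of all genes, describe that 1 cell. In CPM, Hmga2 was the only member past the limit in the same direction in the middle and the high class.

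Comparisons of other groups within the middle class were added after the data were seen. From d0 to d12 (29 and 18 cells) Hmgb2 was at -0.17 and Hmgb3 at 0.71, where both had been lower over all cells, and Hmgn2 was at -2.72 (263 against 1738 CPM, SD 344 and 932). These means of Hmgb2 and Hmgb3 rested on few cells, since the medians were lower at d12 (32.6 against 77.5 CPM and 4.43 against 10.4 CPM) and 1 of the 18 cells held Hmgb3 at 714 CPM. Hmgn2 was the 1 of 8 members lower, with 0 higher, beside 18.2% and 20.1% of all genes tested, and Hmgn1 (652 against 1301 CPM) lay at the limit without passing it. From d12 to d20 (18 and 12 cells) 4 of 8 members were higher, Hmgb2 (2.06), Hmgb3 (1.41), Hmgn2 (2.77) and Hmgn5 (1.33), and 1 was lower, Hmga2 (-1.16), beside 29.6% and 24.4% of all genes tested. The classes are wide, and within the middle one the median cycle sum was still 4533 CPM at d20 against 2817 at d12 and 3901 at d0.

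The third way was to compare cells of unlike identity taken on the same day. Kept cells of d12 and d12c were called XEN-marked where the mean log2(CPM + 1) of the 10 XEN markers exceeded that of the 10 fibroblast markers, and fibroblast-marked otherwise. That gave 28 XEN-marked cells, all from d12c, and 90 fibroblast-marked cells, 67 from d12 and 23 from d12c. Of 8 XEN markers tested between these classes, which they also defined, 7 were higher in XEN-marked cells and 1, Dab2, was lower. The 28 cells were among the 30 d12c cells numbered above 48, and the 21 numbered 1 to 48 were all fibroblast-marked, so within d12c the running number and the marker class cannot be told apart. At d20, 37 of 38 cells were XEN-marked.

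Over single cells Hmgb2 ran from 238 to 3336 CPM in XEN-marked cells (median 1215) and from 0 to 1894 in fibroblast-marked cells (median 7.31). Hmgn2 ran from 575 to 4677 CPM (median 1979) and from 12.8 to 3231 (median 82.8) in the same order. The ranges overlapped for both genes, while the medians were far apart. Hmgn3 ran from 0 to 341 CPM (median 21.4) and from 7.25 to 990 (median 116), and Hmga2 from 0 to 593 (median 109) and from 0 to 1279 (median 221), both lower in XEN-marked cells. In means, Hmgb2 stood at a log2 ratio of 3.16 (1403 against 156 CPM), Hmgn2 at 2.46 (1912 against 346), Hmgb3 at 1.48, Hmgn5 at 1.36, Hmgn1 at 1.04 and Hmgb1 at 0.47, with Hmgn3 at -1.38 and Hmga2 at -1.06. That was 5 of 8 members higher and 2 lower, beside 21.6% and 24.9% of all genes tested, with a median of 1.20 over the members and 0.08 over all genes. Markers of other cell types differed too, with Des and Acta1 of skeletal muscle lower in XEN-marked cells (median -6.59) and Kdr, of endothelium, also lower (-3.48). Each of these 8 directions was the same when scaled by TMM, by DESeq2 size factors and to ERCC UMIs, but Hmgn1 then fell short of the limit (0.87, 0.90 and 0.80), which left 4 higher.

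XEN-marked cells also had a higher median cycle sum, 7830 against 1356 CPM, and a lower median depth, 276239 against 713929 UMIs. In the middle class, a comparison added after the data were seen, 15 XEN-marked and 25 fibroblast-marked cells had median cycle sums of 5895 and 2908 CPM. There 2 of 8 members were higher, Hmgb2 (1.91, 999 against 264 CPM) and Hmgn2 (1.93, 1911 against 500 CPM), and 0 lower, beside 18.2% and 25.7% of all genes tested. Hmgn3 (-0.82) and Hmga2 (-0.83) kept their sign below the limit. The low class held 2 XEN-marked and 60 fibroblast-marked cells, in which 4 members were higher and 2 lower beside 30.7% and 32.8% of all genes tested. In those 2 cells Hmgb2 was at 275 and 1059 CPM, above the 98.7 CPM that was the highest of the 60. The high class held 11 XEN-marked and 5 fibroblast-marked cells, and some directions turned there. Means were 143 against 65.3 CPM for Hmga2, 78.3 against 25 for Hmgn3, 2124 against 2386 for Hmgn2 and 2215 against 2731 for Hmgb1. Hmgb2 (2088 against 1288 CPM), Hmgb3, Hmgn1 and Hmgn5 stayed higher in XEN-marked cells. With d12c cells alone, 28 against 23, 3 members were higher (Hmgb2, Hmgn2 and Hmgn5) and 1 lower (Hmgn3), beside 18.9% and 24.2% of all genes tested.

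The related lists were counted between the same marker classes. Of the other HMG-box genes 1 of 9 tested was higher (Bbx) and 0 lower (median 0.35), of the linker histones 1 of 2 higher (Hist1h1e, median 2.28), of the let-7 axis 2 of 5 higher (Lin28a and Igf2bp3, median 0.33) and of the nucleosome partners 7 of 10 higher (median 1.23). Of the S genes 29 of 33 were higher and 1 lower (median 1.67), and of the G2/M genes 26 of 36 higher and 0 lower (median 1.53), beside 0.08 over all genes.

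For each member the genes with the most similar course were taken by Pearson's r of log2(mean CPM + 1) over the 12 groups, among 8123 genes with at least 20 CPM in any group. The groups are not replicates, and r is a description. Hmgb2 was most like 2810025M15Rik (0.971), Cenph (0.964) and Plk4 (0.956), and Hmgb3 like Gpn3 (0.956), Donson (0.948) and Chaf1a (0.948). Hmgb1 was most like Pdap1 (0.908), Acp1 (0.841) and Chchd1 (0.838). Hmgn1 was nearest to Psma2 (0.961), Erh (0.961) and Haus3 (0.940), and Hmgn2 to Hikeshi (0.955), Lrrc42 (0.946) and Spc24 (0.945). Hmgn3 was nearest to Syt1 (0.935), Fkbp7 (0.935) and Pcsk5 (0.926), and Hmgn5 to Iws1 (0.924), Terf1 (0.894) and Oraov1 (0.873). Hmga2 was nearest to Mpp6 (0.939), Hdgfl3 (0.938) and 9130401M01Rik (0.938), and Mpp6 went from 27.3 CPM at d1 to 0.301 at d8 and 7.88 at d20.

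Promoter sequences, 250 bases before to 50 bases after the start of the gene, were matched for 8 of the 9 members in RefSeq on build GRCm38.p6, with 2 starts each for Hmgb1 and Hmga1. No promoter was matched for Hmgn3 in the set used here. They were searched on both strands for CCAAT (read as ATTGG on the other strand), for the cell cycle homology region letters TTTGAA (read as TTCAAA on the other strand) and TTTAAA (the same on both strands), and for the E2F letters TTCCCGC (read as GCGGGAA on the other strand). Of 32851 promoters of the same length, 37.4% hold CCAAT, 17.9% TTTGAA, 13.2% TTTAAA and 4.6% TTCCCGC. Hmgb2 holds CCAAT 4 times and TTTGAA 2 times, and Hmgb3 CCAAT 3 times with TTTGAA and TTTAAA 1 time each. CCAAT at least 3 times is found in 3.37% of all promoters, and at least 2 times together with TTTGAA or TTTAAA in 3.13%. Hmgn2 holds CCAAT and TTTAAA 1 time each. Hmgb1 holds CCAAT 3 times at its first start, and Hmgn1 and Hmgn5 hold it 2 times, each without TTTGAA or TTTAAA. Hmga2 holds none of these and TTCCCGC 1 time, and Hmga1 holds TTTAAA 1 time at either start. The promoters of Hmgb2 (chr8:57511593-57511892, plus strand), Hmgb3 (chrX:71555667-71555966, plus strand) and Hmgn2 (chr4:133967942-133968241, minus strand) are shown because they are the ones that hold both CCAAT and cell cycle homology region letters, with the matches in capitals. A match is a description and not a site.
Hmgb2: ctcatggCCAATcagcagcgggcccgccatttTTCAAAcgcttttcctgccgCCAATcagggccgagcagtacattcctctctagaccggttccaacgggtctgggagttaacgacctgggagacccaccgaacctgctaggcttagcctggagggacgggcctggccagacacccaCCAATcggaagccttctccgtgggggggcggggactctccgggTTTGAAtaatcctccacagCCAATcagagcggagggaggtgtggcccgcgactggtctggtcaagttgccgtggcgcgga
Hmgb3: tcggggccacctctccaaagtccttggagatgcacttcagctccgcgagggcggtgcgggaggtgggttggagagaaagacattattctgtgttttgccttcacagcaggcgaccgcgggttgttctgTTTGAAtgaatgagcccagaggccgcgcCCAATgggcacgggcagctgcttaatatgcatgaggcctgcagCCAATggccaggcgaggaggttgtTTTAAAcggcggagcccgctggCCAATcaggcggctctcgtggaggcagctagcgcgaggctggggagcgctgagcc
Hmgn2: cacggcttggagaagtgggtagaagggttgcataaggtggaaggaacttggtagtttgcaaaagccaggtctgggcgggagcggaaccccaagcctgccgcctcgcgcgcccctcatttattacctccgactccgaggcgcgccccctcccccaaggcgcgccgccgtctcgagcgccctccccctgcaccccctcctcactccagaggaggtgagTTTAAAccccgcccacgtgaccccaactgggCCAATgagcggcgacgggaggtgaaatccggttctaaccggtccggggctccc

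The 3′ UTR of Hmga2 was searched for the let-7 seed match because the gene is a known let-7 target and had the lowest mean ratio of the members from d0 to d8. The 8 mature let-7 miRNAs of the 5′ arm in RefSeq share 1 seed, shown in capitals in let-7a-5p. Its match, CTACCTC, occurs 4 times in the 3014 bases of the UTR of its longest transcript in GENCODE M1 (3810 bases in all). The matches are shown in capitals, each with the bases around it, and the miRNAs themselves were not analysed here.
mmu-let-7a-5p: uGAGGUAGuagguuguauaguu
Hmga2 match 1: ggggcgccgacattcaatttCTACCTCagc
Hmga2 match 2: ataatccccactcctcaataCTACCTCtga
Hmga2 match 3: acttcctgatttgcaaggaaCTACCTCcac
Hmga2 match 4: tgtacaatcaaaacacactaCTACCTCtta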

How the data were processed

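The deposited values are unscaled counts of UMIs from the authors' own alignment to mouse transcripts, with mm9 as the build in the submitters' notes. The aligner is not given in the sources used here. The table held 808 cells, 92 ERCC RNAs and 23201 gene entries, of which 26 bore dates in place of names and 4 with repeated names were left out. The 5 largest counts, up to 129000, were whole multiples of 1000. The limit of 4000 detected genes removed 138 cells. Doublets were not called in these hand-picked cells.

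The 9 members and all lists were chosen with earlier results of these data known. The named genes are the members, 17 other HMG-box genes, 7 linker histones, 11 let-7 axis genes, 10 nucleosome partners, and the 3 genes with the highest Pearson r for each member over 12 groups among genes with 20 CPM in any group. The S list held 43 genes, 42 in the table (not Mlf1ip), and the G2/M list 53, 51 in the table (not Fam64a or Hn1). The marker lists were fibroblast (10 genes), XEN (10), macrophage (6, of which Emr1 is not in the table), endothelial (4) and skeletal muscle (4).

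Mean CPM with a pseudocount of 1 gave log2 ratios. The cycle classes are the lowest, middle and highest of 3 equal parts of the kept cells by the summed CPM of S and G2/M genes. Shares of variance come from least squares with group and the log2 S and G2/M sums as terms. No test was made and no p-value was computed, because no cell could be assigned to 1 of the 10 batches. No paired analysis was possible because batches are not in the cell names. Thinning to 50000 UMIs left out 23 shallower cells. A share of 0 was read as allowing 3 cells.

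Alternatives were all cells, cells with 2000 or 6000 genes, mean log2 values, medians, pooled UMIs, TMM factors, DESeq2 size factors, ERCC scaling, a pseudocount of 10, thinned counts, no highest cell, running numbers 1 to 48 or above 48, no filter on low genes, other cycle sums, 2 in place of 3 cycle classes, and other cells for the marker classes. Added after seeing the data were the d8 comparison, the middle class for d12 and for the marker classes, cycle-adjusted differences, XEN-marked cells against d12 cells alone, marker classes in cells numbered above 48, and d20 without its fibroblast-marked cell.

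Positions are from GENCODE M1 on mm9, promoters and miRNAs from RefSeq. Exact copies of 50-base windows were searched in the mm9 genome, and 1 result of that search is not reported here. Scaling factors came from edgeR 4.0.16 and DESeq2 1.42.0 (R 4.3.3), all else from scipy 1.17.1, pandas 2.3.3 and numpy 2.4.6 (Python 3.11.15). The log2 ratio was tested on simulated data.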

Additional observations from a re-analysis of the deposited data

How the results depend on the processing

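The 8 member ratios of the 4 comparisons between groups and of the middle and high cycle classes were recomputed in up to 22 planned settings and 4 added after seeing the data: 194 moved within counting error, 393 by more, and 5 that had passed the 2-fold limit changed sign. A further 30 values, which had been short of the limit, changed sign within the first 2 counts, 9 of them with scaling to ERCC UMIs, and 7 of the 30 were then past it. The 5 changed with scaling to ERCC UMIs, Hmgb2 (-1.75) and Hmgn5 (-1.54) from d0 to d20, and Hmgb2 (-0.90), Hmgb3 (-0.65) and Hmgn5 (-0.69) in the middle class. This scaling lowers all genes of groups with more ERCC by construction; it gave 0 members higher and 6 lower at d8 than d0, 8 lower at d12, and 0 higher and 8 lower at d20. In the middle class it gave 0 higher and 5 lower, in the high class 8 lower, and from d12 to d20 2 lower. It shifted the median of all genes by -1.01 (d8), -2.09 (d12) and -2.89 (d20) against d0. TMM factors shifted it by -0.07, 0.21 and -0.30, and gave 0 members higher from d0 to d20, 2 lower from d12 to d20 and 2 lower in the middle class. DESeq2 size factors shifted it by -0.08, 0.20 and -0.18, and gave 1 higher and 2 lower in the first 2 of these counts. From d12 to d20 the shifts were -0.53 for TMM, -0.39 for DESeq2 and -1.0 for ERCC. From d0 to d20, 1 member was higher with all cells, with pooled UMIs and with cells numbered 1 to 48. Mean log2 values gave 5 lower at d8 and 5 at d12, 3 higher and 2 lower from d0 to d20 and 2 lower from d12 to d20, and all cells or those with 2000 genes gave 0 lower from d12 to d20. Cells numbered above 48 gave 0 higher at d8. Thinned cycle sums gave 1 higher in the low class, and 2 in place of 3 classes 1 lower in the low and 1 higher in the high class, which then hold more cells. In the marker classes d12c cells alone gave 3 higher and 1 lower, and the middle class 2 and 0; in that class 1 member was lower from d0 to d12. Except where construction is named, the cause was not tested. With S genes alone no value was taken for the low class (0 d20 cells) or the middle class (8, under a minimum of 10 that was not applied to the low class). With 2 classes there is no middle, and the low class (1 d20 cell) was not scaled again. At the lowest median depth, 195480 UMIs at d20, shares of cells with a UMI before thinning are least comparable with deeper groups.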
